A study of Rattus norvegicus with 12 samples.

Results

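The 10 circadian clock genes Per1, Per2, Per3, Arntl, Clock, Npas2, Nr1d1, Nr1d2, Dbp and Cry1 were followed in the dorsal striatum of dopamine-depleted rats. They were taken as every non-control probe whose gene name in the scanner files was one of these symbols, with letter case and the suffix for predicted genes ignored. This gave 12 probes of 41012 on the array, and 10 genes of 35608. The array carried 1 probe for each gene except Per3, which had 3. After probes too dim to measure were set aside, 9 of the 10 genes were tested, among 20398 genes in all.

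Gene expression was measured with 1-colour Agilent rat arrays in 12 male rats, 1 array per rat and 3 rats in each of 4 groups. All rats, the reference group included, had been lesioned with 6-OHDA, which kills catecholamine neurons, by 9 µg injected on the left side into the substantia nigra pars compacta. The 6-OHDA group had no further treatment. The HFS group was implanted with an electrode and received 5 days of continuous high frequency stimulation of the subthalamic nucleus, at 130 Hz with 80 µs pulses of 60 µA. The DOPA group received 25 mg/kg L-DOPA with 12.5 mg/kg benserazide in 2 daily injections, 12 h apart, over 19 days. In the DOPA/HFS group L-DOPA and stimulation were combined. Rats given L-DOPA were killed 12 h after the last injection, and stimulated rats as soon as the current was switched off. An electrode is stated for the HFS and DOPA/HFS groups alone, so implantation and stimulation cannot be told apart. Strain and age are not in the labels, and no unlesioned rat was on the arrays. The time of day of killing is not given in the sources used here, and its part in any value was not tested. The tissue was punched from frozen sections, so a lower signal from fewer cells of a type and one from less RNA per cell cannot be told apart.

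The clock of mammalian cells is a loop of transcription factors that runs once a day. The activators Arntl (also named Bmal1) and Clock, or its relative Npas2 in forebrain, bind E-boxes and switch on the Per and Cry genes, whose proteins return to the nucleus and repress the activators. Nr1d1 and Nr1d2 (Rev-erb alpha and beta) are also switched on through E-boxes and repress Arntl at ROR elements, while Dbp is an output factor that binds D-boxes. In the striatum, clock genes are known to cycle and to respond to dopamine receptor signalling.

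The arrays resembled striatum, with all 9 striatal projection neuron markers found. Rgs9, which is missing on DOPA/HFS replicate 3, was left out of their sum. The summed signal of the others was between 197332 and 273469 on the linear scale in the 6-OHDA rats, against 214399 to 254302 over the treated groups. Markers of another tissue moved with the groups. The summed signal of the choroid plexus markers Ttr, Sostdc1, Kl, Clic6 and Kcnj13 was 149 to 172 in 6-OHDA and 4082 to 87810 in HFS. It was 87.3 to 16122 in DOPA and 109 to 783 in DOPA/HFS. Of the 7 markers listed, 6 were found. Folr1, the other one found, is missing on DOPA/HFS replicate 3 and was left out of the sums. Its log2 signal overlapped between 6-OHDA (6.22 to 8.50) and HFS (7.85 to 10.34). The summed signal of the 5 endothelial markers, which is nearly all Cldn5, was 7079 to 7272 in 6-OHDA, 5800 to 8283 in HFS, 8045 to 9636 in DOPA and 6667 to 7446 in DOPA/HFS, while Flt1, Pecam1, Tek and Cdh5 overlapped between 6-OHDA and DOPA. Of 5 cortical neuron markers, Slc17a7 and Nrn1 were found. Their summed signal was 472 to 1150 in 6-OHDA, 404 to 1248 in HFS, 532 to 1584 in DOPA and 535 to 1318 in DOPA/HFS. These groups overlapped, but arrays differed, with Slc17a7 at 4.35 on 6-OHDA replicate 2 and 7.76 on HFS replicate 3. The part of any of these tissues in the values below was not tested. DOPA/HFS replicate 3 had 4175 spots marked as outliers, against 2 to 25 on the other arrays, and none of the clock gene spots was among them. Outlier spots were removed before normalization, so they can still bear on the values of other spots. With them kept, 11 of the 54 log2 changes of the clock genes tested below changed sign, and 1 moved by more than an SE. Replicates of the same number shared a slide, and each group held a fixed place on the slides, so that place and treatment cannot be told apart.

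Of the activators, Arntl and Npas2 were measured on all 12 arrays. Signals are given as log2 of the quantile normalized intensity, for replicates 1, 2 and 3 of each group in that order. Arntl read 11.25, 10.82 and 11.27 in 6-OHDA, 11.43, 11.19 and 11.70 in HFS, 11.19, 11.19 and 11.15 in DOPA, and 11.19, 11.17 and 10.74 in DOPA/HFS. Its highest arrays were HFS replicates 3 and 1 and its lowest was DOPA/HFS replicate 3, with every treated group overlapping 6-OHDA. The 3 DOPA arrays lay within an SD of 0.02, whereas the SD was 0.25 to 0.26 in the other groups. Npas2 read 8.31, 7.73 and 8.28 in 6-OHDA, 7.85, 8.13 and 8.80 in HFS, 7.97, 7.83 and 8.19 in DOPA, and 8.67, 7.97 and 7.93 in DOPA/HFS. Both the highest and the third lowest Npas2 values were in the HFS group, and all groups overlapped. The Clock probe was not well above background on any of the 12 arrays, at 2.83 to 4.57, so these data hold only an upper bound on Clock and it was not tested. Arntl2, a second partner of Clock, also stayed at background throughout.

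The Per and Cry genes encode the repressors of the loop. Per1, which also responds quickly to cAMP and glucocorticoid signals, read 10.16, 9.31 and 10.35 in 6-OHDA, 10.46, 10.31 and 9.98 in HFS, 9.75, 9.37 and 9.98 in DOPA, and 10.60, 9.83 and 10.06 in DOPA/HFS. The lowest values belonged to 6-OHDA replicate 2 and DOPA replicate 2, and the groups overlapped. Per2 read 9.23, 9.13 and 8.96 in 6-OHDA, 9.37, 8.97 and 8.96 in HFS, 9.24, 8.98 and 9.15 in DOPA, and 9.22, 9.08 and 9.27 in DOPA/HFS. It was the flattest of the 9 genes, with a range of 0.41 over the 12 arrays, which 94.7% of all tested genes exceeded. Cry1 read 10.38, 10.59 and 10.08 in 6-OHDA, 10.35, 10.19 and 10.00 in HFS, 10.39, 10.50 and 10.39 in DOPA, and 10.35, 10.28 and 9.97 in DOPA/HFS. Slide 3 held the lowest Cry1 value in 6-OHDA, HFS and DOPA/HFS, and DOPA replicates 1 and 3 differed by less than the rounding.

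Per3 was read by 3 probes, of which the brightest stands for the gene. That probe read 7.84, 7.21 and 8.08 in 6-OHDA, 7.43, 7.78 and 8.05 in HFS, 7.77, 7.36 and 7.89 in DOPA, and 8.39, 7.56 and 7.80 in DOPA/HFS. A second probe, well above background on 11 arrays, followed it closely (r = 0.93, rho = 0.86, n = 12), with the same array lowest (6-OHDA replicate 2) and the same array highest (DOPA/HFS replicate 1). The third probe was well above background on 0 arrays. As the first 2 probes share each array, their correlation speaks of the probes and not of replicate rats.

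Nr1d1, Nr1d2 and Dbp are direct targets of the activators. Nr1d1 read 9.66, 9.93 and 10.16 in 6-OHDA, 9.62, 9.72 and 9.59 in HFS, 9.76, 9.26 and 9.67 in DOPA, and 9.95, 9.33 and 9.67 in DOPA/HFS. Nr1d2 read 7.92, 8.14 and 7.56 in 6-OHDA, 7.66, 7.32 and 7.14 in HFS, 7.61, 8.39 and 7.28 in DOPA, and 7.87, 8.26 and 7.96 in DOPA/HFS. For Nr1d2 the HFS arrays included the lowest value of all 12, and HFS replicate 1 overlapped the lowest 6-OHDA array. Dbp read 13.62, 13.94 and 14.14 in 6-OHDA, 13.65, 13.71 and 13.61 in HFS, 14.01, 13.64 and 13.67 in DOPA, and 14.25, 13.67 and 13.68 in DOPA/HFS. The 3 HFS arrays were close together for Dbp (SD 0.05, against 0.20 to 0.33 in the other groups) and for Nr1d1 (SD 0.07, against 0.25 to 0.31). Across all 9 genes the ranges over the 12 arrays ran from 0.41 for Per2 to 1.29 for Per1, beside a median of 0.89 over all tested genes.

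**Figure D1:**
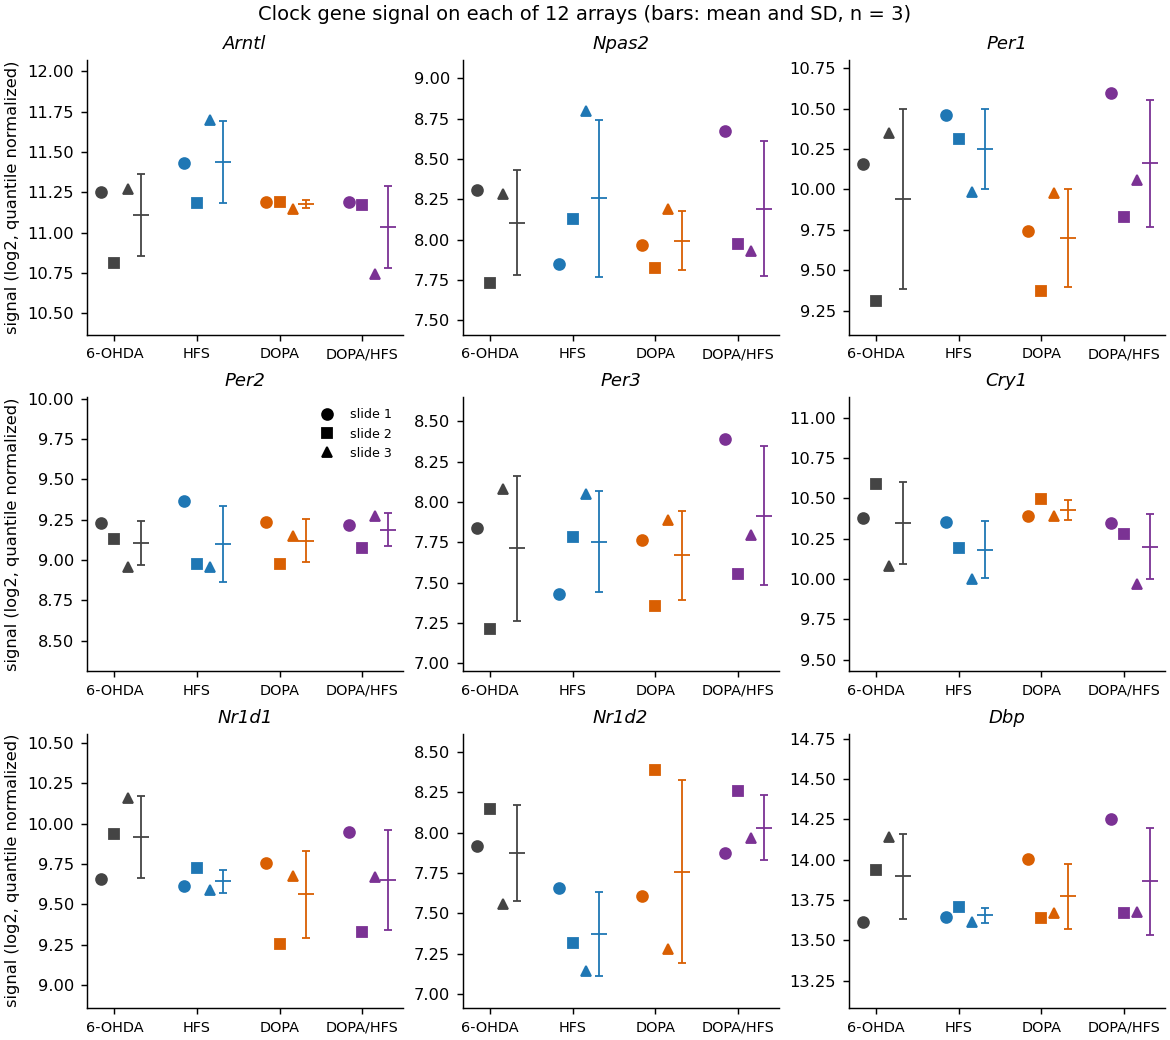
Signal of the 9 measured clock genes (log2 of the quantile normalized intensity, a panel per gene with its own level and the same span) on each array, with the shape giving the slide and the bar the mean and SD of the 3 arrays of a group. Every treated group overlaps 6-OHDA in every panel, and the Per2 points span only 0.41.

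The first question was whether stimulation, L-DOPA or both shifted the clock genes from the lesion alone. None of the 9 did so beyond the spread between rats. In HFS against 6-OHDA, 0 of 9 clock genes passed the call (a limma adjusted p under 0.1 together with a fold above 1.2 or below 0.8), where 0% of all genes tested did, and 0 of 9 reached an unadjusted p under 0.05, where 2.34% of all genes did. In DOPA against 6-OHDA the counts were again 0 of 9, beside 0.0049% of all genes called and 2.58% at the unadjusted level. In DOPA/HFS they were 0 of 9 as well, beside 0% and 2.75%. No clock gene had a treated group that did not overlap 6-OHDA, a separation that 5.13%, 6.27% and 4.19% of all genes showed in the 3 comparisons in that order. A version of the 2-class SAM and Wilcoxon procedure of the methods called 0 of 9 in each comparison, beside 0%, 0.0147% and 0.00544% of all genes in the same order. It called fewer genes than the paper lists. As a call there also required groups that do not overlap, its 0 of 9 was settled by the overlap and adds no support. None of these counts sets the clock genes apart. The F test over the 4 groups called 0 of 9, beside 0.0049% of all genes, with every clock gene at a limma adjusted p of 0.9999.

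The largest difference was that of Nr1d2 in HFS. Its mean log2 signal was 7.87 ± 0.30 (SD, n = 3) in 6-OHDA and 7.37 ± 0.26 (SD, n = 3) in HFS, a log2 change of -0.50 with an SE of 0.27. The 95% interval of the fold was 0.466 to 1.07, the limma adjusted p was 0.998 and the exact two-sided permutation p was 0.2, where 3 against 3 arrays cannot go below 0.1. Within slides the difference was -0.26, -0.83 and -0.41, that is, lower on all 3. In DOPA the Nr1d2 change was -0.12 and in DOPA/HFS it was 0.16. Arntl, the gene that the Rev-erb proteins repress, differed the other way in HFS, by 0.33 (SE 0.19, 95% interval of the fold 0.942 to 1.67), and was higher on all 3 slides, by 0.18, 0.37 and 0.43. Without 6-OHDA replicate 2 the Arntl change was 0.18, and without HFS replicate 3 it was 0.20. In HFS 4 of 9 clock genes differed in the same direction on all 3 slides (Arntl, Nr1d1, Nr1d2 and Cry1), beside 26.3% of all genes, while it was 0 of 9 in DOPA (22.4% of all genes) and 1 of 9, Cry1, in DOPA/HFS (16.5%). Neither difference passed the test, and both comparisons rest on the same 6 arrays.

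Nr1d1 was lower on average than 6-OHDA in each treated group, and here again none of the differences passed. Its log2 change was -0.27 with HFS, -0.35 with L-DOPA and -0.27 with both (SE 0.20 each), and these values share the 6-OHDA arrays. Within slides the HFS difference was -0.04, -0.21 and -0.57, the DOPA difference 0.10, -0.68 and -0.49, and the DOPA/HFS difference 0.29, -0.61 and -0.49, so that HFS alone had the same direction on all slides. Without 6-OHDA replicate 3 the Nr1d1 changes were -0.15, -0.23 and -0.14 in that order, and without the replicate 2 array of the treated group those of DOPA and DOPA/HFS were -0.20 and -0.11. Dbp changed by -0.24, -0.13 and -0.03 in the same order (SE 0.20). Its DOPA/HFS difference was 0.63 on slide 1 and -0.26 and -0.46 on the other two.

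None of the Per and Cry differences passed the test either. Per1 changed by 0.31, -0.24 and 0.22 in HFS, DOPA and DOPA/HFS, with the widest error of the 9 genes (SE 0.29). On slide 2, where the 6-OHDA array was lowest for this gene, the HFS difference was 1.003, and on slide 3 it was -0.37. Without 6-OHDA replicate 2 these Per1 values became -0.004, -0.56 and -0.09. Per2 changed by -0.01, 0.02 and 0.08 in HFS, DOPA and DOPA/HFS (SE 0.15), and its 95% intervals limit the fold to between 0.787 and 1.34 over the 3 comparisons. Per3 changed by 0.04, -0.04 and 0.20 (SE 0.28), and Cry1 by -0.17, 0.08 and -0.15 (SE 0.17). Cry1 was lower on all 3 slides in HFS (by -0.02, -0.40 and -0.08) and in DOPA/HFS (by -0.03, -0.31 and -0.11). For Npas2 the values were 0.15, -0.11 and 0.09 (SE 0.28).

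All 27 intervals of the 9 genes over the 3 comparisons include no change. Their outer bounds are folds of 0.466 and 1.94, so these arrays do not show that the clock genes were level.

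**Figure D2:**
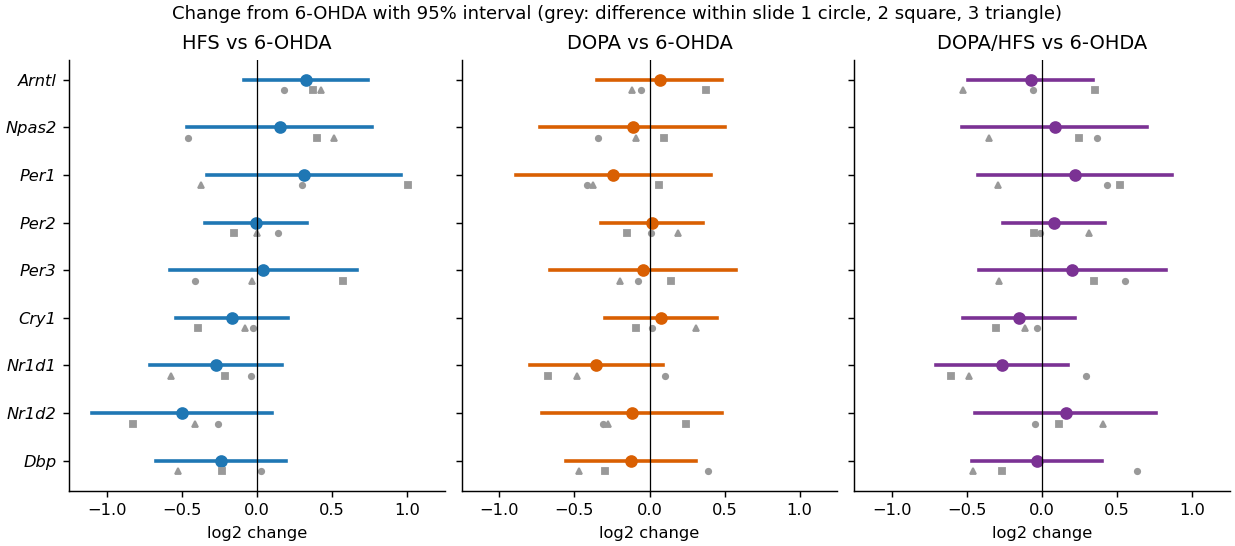
Log2 change of each clock gene from 6-OHDA in the 3 treated groups, with the point as the limma estimate, the bar as its 95% interval, and grey marks as the difference between the arrays of each slide. All 27 bars cross 0, and the grey marks lie on 1 side of it for Arntl, Nr1d1, Nr1d2 and Cry1 in HFS and for Cry1 in DOPA/HFS.

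The second question was whether 6 stimulated rats differed from 6 unstimulated rats, or 6 rats on L-DOPA from 6 without it, at equal state of the other treatment. By limma, 0 of 9 clock genes were called for either effect, beside 0% of all genes for HFS and 0.0049% for L-DOPA, and 0 of 9 reached an unadjusted p under 0.05, beside 4.36% and 2.74%. Per1 had the largest HFS effect, 0.39 on the log2 scale (SE 0.21, limma adjusted p 0.911, exact permutation p 0.115), with a fold between 0.952 and 1.80. Cry1 had the next smallest p, with an effect of -0.20 (SE 0.12, limma adjusted p 0.911, exact permutation p 0.095). For L-DOPA the largest effect was that of Nr1d2, at 0.27 (SE 0.19, limma adjusted p 0.9998).

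The interaction tested whether the HFS effect differed with L-DOPA, and called 0 of 9 clock genes (0% of all genes), with 0 of 9 at an unadjusted p under 0.05 (1.98% of all genes). Nr1d2 came nearest. Its signal was lower with HFS in rats without L-DOPA (7.87 ± 0.30 against 7.37 ± 0.26, SD, n = 3) and higher with HFS in rats on L-DOPA (7.76 ± 0.57 against 8.03 ± 0.20, SD, n = 3). The interaction was 0.77 on the log2 scale (SE 0.39, 95% interval -0.08 to 1.62, limma adjusted p 0.99996). It was 0.40 in the deposited table and ran from 0.53 to 1.09 as each array was left out. With slide as a block the unadjusted limma p of Nr1d2 was 0.031 for the interaction and 0.044 for HFS against 6-OHDA, and that of Per1 was 0.050 for the HFS effect, with limma adjusted p of 0.99995, 0.980 and 0.716.

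The clock genes were then compared with one another, rat by rat. There are 36 pairs of the 9 genes, and 3 of them had a Pearson r beyond 0.6 in either direction over the 12 arrays, that is 8.33% of the pairs, beside 13.8% of all pairs of tested genes. With the group means removed 7 pairs (19.4%, beside 20.2% of all gene pairs) passed that limit, and with the group and slide means removed 8 (22.2%, beside 24.2%), so the clock genes as a set were near the background. The 3 pairs were Npas2 with Per3 (r = 0.87, rho = 0.90), Nr1d1 with Dbp (r = 0.77, rho = 0.89) and Per1 with Per3 (r = 0.69, rho = 0.62). These are descriptions with no test, and the 2 genes of a pair share array, slide and rat. With the group means removed the values of the 3 pairs were 0.90, 0.84 and 0.73. Leaving out the 2 arrays farthest from the median of the first gene of each pair gave 0.89, 0.73 and 0.35. The r of Per1 with Per3 thus depends on those arrays, though leaving them out also narrows the range of Per1.

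Much of this variation ran along an axis that the whole array shared. The first principal component of 18350 genes held 30.6% of their variance, and 25.5% of those genes had an r beyond 0.7 with it in either direction. Along it 6-OHDA replicate 2 (-67.0) and DOPA replicate 2 (-32.4) lay at the low end and DOPA/HFS replicate 1 (38.7) and HFS replicate 3 (33.8) at the high end, so that 6-OHDA, HFS, DOPA and DOPA/HFS overlapped. The slide moved with it, as the 3 lowest arrays were all from slide 2, the 4th array of slide 2 lay at 3.28, and all 4 arrays of slide 3 were above 0, from 0.28 to 33.8. The part of the slide in these correlations was not tested beyond the values given with slide means removed. Per3 (r = 0.92), Npas2 (0.82) and Per1 (0.78) ran with it, Nr1d2 (-0.65) and Cry1 (-0.63) ran against it, Arntl had an r of 0.55, and Per2 (-0.05), Dbp (0.23) and Nr1d1 (0.28) lay nearest 0. With this component removed, Npas2 and Per3 had r = 0.51 and Per1 and Per3 had r = -0.11. Nr1d1 and Dbp had an r of 0.76, but as both had a low r with the component, removing it could change little. In this setting 2 of the 36 pairs (5.56%) had an r beyond 0.6 in either direction, beside 9.34% of all gene pairs.

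**Figure D3:**
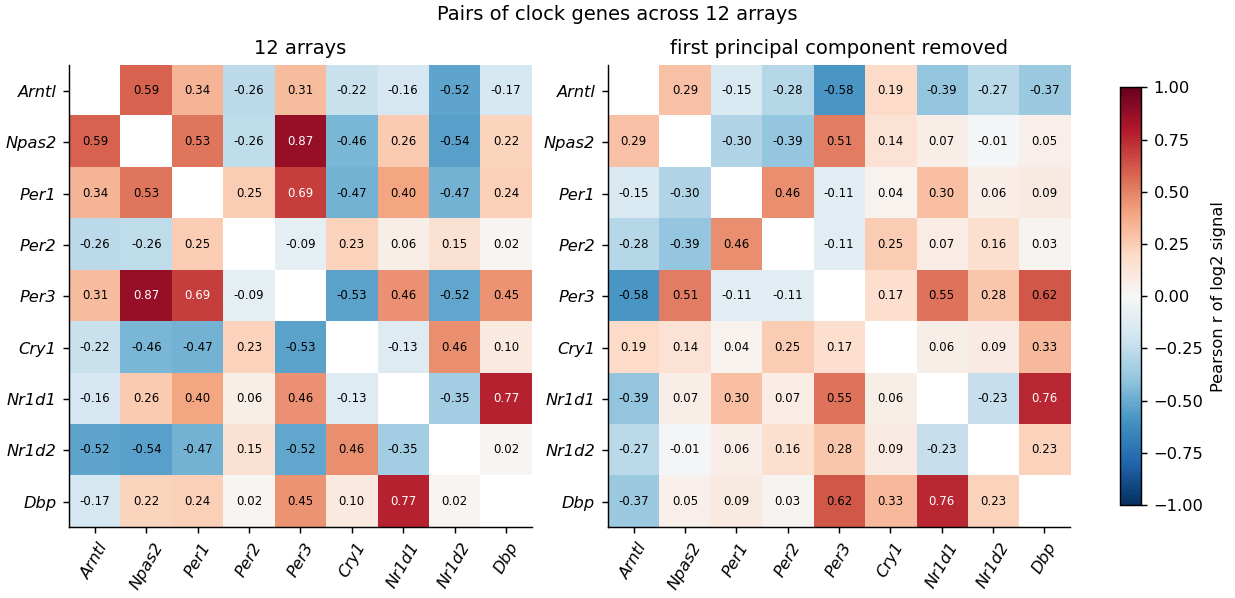
Pearson r of log2 signal between each pair of the 9 clock genes over 12 arrays, as measured and with the first principal component of all genes removed from each gene. The cell of Nr1d1 and Dbp, which both have a low r with that component, is near 0.8 in both panels (0.77 and 0.76). That of Per1 and Per3 goes from 0.69 to -0.11.

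Nr1d1 and Dbp, picked among the pairs for their r, were looked at array by array. Of 18349 other genes, Nr1d1 had the 7th highest r with Dbp, and Dbp the 19th highest r with Nr1d1. With both the group and the slide means removed their r was 0.90. The Dbp values left a gap between 13.71 and 13.94, with 8 arrays below it and 4 above (6-OHDA replicates 2 and 3, DOPA replicate 1 and DOPA/HFS replicate 1). Those 4 arrays, from 3 groups and all 3 slides, also had the 4 highest Nr1d1 values, from 9.76 to 10.16, against 9.26 to 9.72 on the other 8. This split was made on Dbp itself after the pair was picked, so it describes that r and adds no support to it. Within the 8 arrays, where Dbp spanned only 13.61 to 13.71, r was 0.22 and rho was 0.67. The pooled r thus describes mainly the separation of the 4 arrays from the rest, and so narrow a range lowers r by itself. No array of the HFS group was among the 4.

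**Figure D4:**
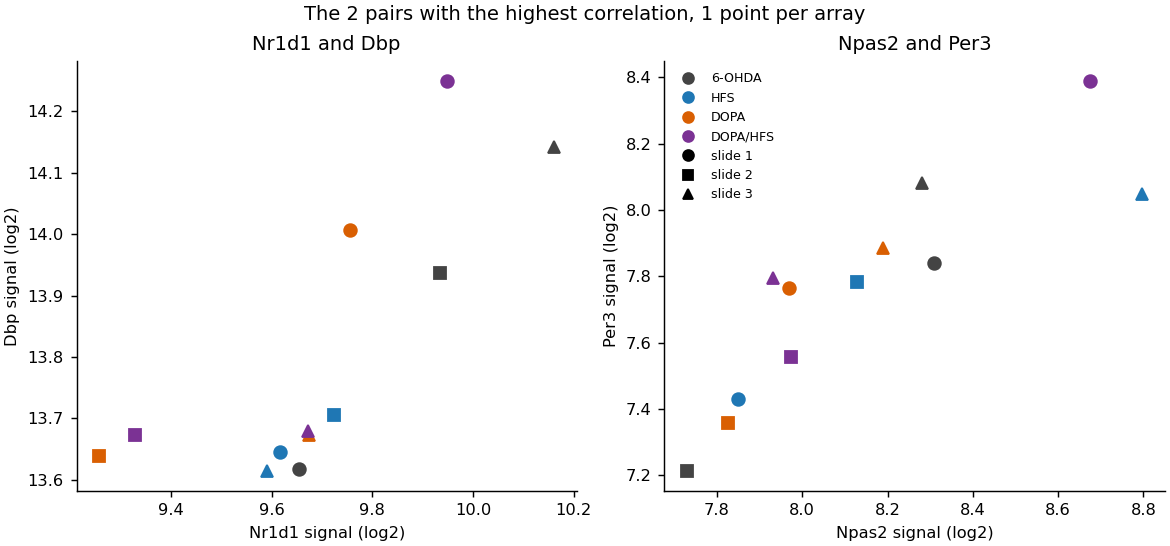
Log2 signal of Dbp against Nr1d1 and of Per3 against Npas2, with 1 point per array, colour for the group and shape for the slide. The 4 arrays with Dbp above 13.9 are those with the highest Nr1d1, and the points of Npas2 and Per3 form a band from 6-OHDA replicate 2 to DOPA/HFS replicate 1.

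Since Nr1d1 and Dbp varied together, their RefSeq promoter windows are shown, 250 bases before to 50 after the annotated start in the rat assembly GRCr8, with those of Per2, the flattest gene, and Arntl, the gene that Rev-erb proteins repress. Capitals mark every match, on either strand, to the E-box CACGTG, the E-prime-box CACGTT, the D-box TTATGTAA or TTACGTAA, the ROR element TAGGTCA or TGGGTCA, and the cAMP response element TGACGTCA. Nr1d1 has 2 windows in the table, and Dbp has none of these motifs in its own.
Nr1d1 upstream window, chr10:84231763-84232062, minus strand: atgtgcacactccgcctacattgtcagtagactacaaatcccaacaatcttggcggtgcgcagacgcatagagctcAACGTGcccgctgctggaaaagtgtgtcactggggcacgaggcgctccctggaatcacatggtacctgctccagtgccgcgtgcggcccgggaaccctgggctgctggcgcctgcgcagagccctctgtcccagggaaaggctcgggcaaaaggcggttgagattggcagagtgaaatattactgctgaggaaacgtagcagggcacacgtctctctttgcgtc
Nr1d1 downstream window, chr10:84229405-84229704, minus strand: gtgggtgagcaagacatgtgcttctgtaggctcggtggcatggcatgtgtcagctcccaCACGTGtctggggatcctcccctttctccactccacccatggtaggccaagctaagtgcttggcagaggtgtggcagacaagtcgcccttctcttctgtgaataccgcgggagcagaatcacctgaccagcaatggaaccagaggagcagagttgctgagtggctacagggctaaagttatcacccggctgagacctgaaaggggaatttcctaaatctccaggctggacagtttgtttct
Dbp, chr1:105312006-105312305, plus strand: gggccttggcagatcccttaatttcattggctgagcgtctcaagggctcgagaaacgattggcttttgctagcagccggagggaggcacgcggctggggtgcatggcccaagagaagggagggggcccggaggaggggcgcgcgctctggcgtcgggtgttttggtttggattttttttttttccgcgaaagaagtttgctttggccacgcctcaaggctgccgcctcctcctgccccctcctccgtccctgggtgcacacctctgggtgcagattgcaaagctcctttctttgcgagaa
Per2, chr9:99496944-99497243, minus strand: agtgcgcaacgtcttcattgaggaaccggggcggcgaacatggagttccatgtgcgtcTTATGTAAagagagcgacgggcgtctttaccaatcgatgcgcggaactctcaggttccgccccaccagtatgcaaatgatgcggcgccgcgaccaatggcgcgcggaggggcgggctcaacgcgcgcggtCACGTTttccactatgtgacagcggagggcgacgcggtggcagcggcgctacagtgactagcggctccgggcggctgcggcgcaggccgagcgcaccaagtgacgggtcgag
Arntl, chr1:176766078-176766377, plus strand: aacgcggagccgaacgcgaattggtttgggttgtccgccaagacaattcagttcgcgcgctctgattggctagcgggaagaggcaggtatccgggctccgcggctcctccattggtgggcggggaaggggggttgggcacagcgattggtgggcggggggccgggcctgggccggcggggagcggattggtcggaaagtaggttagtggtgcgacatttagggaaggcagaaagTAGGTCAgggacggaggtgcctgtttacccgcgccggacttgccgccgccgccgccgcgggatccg

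Among the 9 clock genes with a window in the table, all but Cry1 (11 windows in all), the E-box was found in Nr1d1 alone, beginning 191 bases before the annotated start in the downstream window, beside 6.42% of all 33469 windows. The E-prime-box lay in Per2, 62 bases before the start, and on the minus strand in the upstream window of Nr1d1, beside 4.83% of all windows. Per2 also held the D-box TTATGTAA, 192 bases before the start (0.893% of all windows). In Arntl the ROR element TAGGTCA lay 16 bases before the start (2.63% of all windows). The other D-box (0.12%), the other ROR element (4.09%) and the cAMP response element (1.83%) were in no clock gene window. A match is a run of letters in a short window and says nothing of binding, and a missing match covers only these bases.

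The activator Arntl was then set against every other gene over the 12 arrays. Of the other 8 clock genes, Npas2 had the highest r with it, 0.59 (permutation p 0.044, adjusted over 18349 genes 0.401), with a rho of 0.39 (permutation p 0.206). That r was 0.69 with the group means removed (permutation p within groups 0.114) and 0.66 with the group and slide means removed. Without the 2 arrays farthest from the Arntl median, HFS replicate 3 and DOPA/HFS replicate 3, it was 0.26. The r of Npas2 thus depends on those arrays, though leaving them out also narrows the range of Arntl. Nr1d2 had the lowest, -0.52 (permutation p 0.078, adjusted 0.418), with a rho of -0.35 (permutation p 0.263), and -0.20 with the group means removed. The other 6 ran from -0.26 for Per2 to 0.34 for Per1, with permutation p from 0.277 to 0.617. With the group and slide means removed, the strongest of the 8 was Per2, with an r of -0.75. Over all genes, 13.7% had an r of 0.5 or more with Arntl and 9.35% one of -0.5 or less.

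The 5 genes most like Arntl by r over the 12 arrays were Dab2 (0.90), Septin1 (0.90), AW915656 (0.89), Sgcz (0.88) and Eprs1 (0.88). The 5 most unlike it were Tmem53 (-0.94), AW917204 (-0.89), DV717996 (-0.88), Ncln (-0.87) and LOC287010 (-0.85). Tmem53 had the lowest adjusted p of all genes, 0.183 by permutation, so no gene passed after adjustment. None of these 10 is a clock gene, and Npas2 ranked 1259th.

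Of 18 other clock genes, such as the repressor Cry2, the casein kinases that mark Per proteins for decay, and the D-box factors Tef, Hlf and Nfil3, 15 were on the array and 13 were tested. Limma called 0 of 13 in any of the 6 comparisons, beside 0% or 0.0049% of all genes in each. In HFS against 6-OHDA, 2 of 13 were higher at an unadjusted p under 0.05 and 0 lower, beside 1.21% of all genes higher, and the median change of the 13 was 0.07 beside 0.01 for all genes. The 2 were Nfil3 and Timeless. For L-DOPA alone and for both treatments against 6-OHDA, 0 of 13 were at that level in either direction, and the medians were 0.06 and 0.04, beside -0.01 for all genes each time.

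Nfil3 (E4BP4) is the repressor that competes with Dbp for D-boxes. It read 8.20, 7.93 and 8.32 in 6-OHDA, 8.87, 8.90 and 8.77 in HFS, 8.12, 8.38 and 8.39 in DOPA, and 8.42, 8.12 and 8.18 in DOPA/HFS. All 3 HFS arrays lay above all 9 others. The log2 change in HFS was 0.69 (SE 0.15, 95% interval of the fold 1.28 to 2.03), with an unadjusted limma p of 0.00081, an adjusted p of 0.998 and an exact permutation p of 0.1, the smallest that 3 against 3 arrays can give. The interaction with L-DOPA was -0.74 (SE 0.21, unadjusted limma p 0.0052, adjusted 0.99996), so with adjustment over all genes neither value passed. The summed choroid plexus signal was 87810, 4082 and 43869 on the HFS arrays and 16122 on DOPA replicate 3. Of these 4 arrays HFS replicate 2, with the lowest sum, had the highest Nfil3 (8.90), and DOPA replicate 3 read 8.39. The part of that tissue in the Nfil3 value was not tested. Timeless, well above background on 7 arrays, was 0.65 higher in HFS (SE 0.27, limma adjusted p 0.998). Its signal was low, at 4.44 to 5.18 in 6-OHDA and 5.22 to 5.66 in HFS. Within slides its HFS difference was 0.73, 1.19 and 0.05.

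Of the other D-box factors, Tef changed by 0.17, 0.04 and -0.05 in HFS, DOPA and DOPA/HFS (SE 0.37), and Hlf by 0.03, -0.70 and -0.71 (SE 0.65). The E-box repressors Bhlhe40 and Bhlhe41 changed by -0.24 and -0.21 under HFS, -0.26 and 0.23 under L-DOPA, and 0.01 and 0.04 under both. The paper lists Bhlhe40 among the genes lowered by HFS, with a larger decrease than here. In these data its HFS change was a fold of 0.844 (SE of the log2 change 0.21, limma adjusted p 0.998) and was not called. Within slides the HFS difference of Bhlhe40 was -0.13, -0.32 and -0.28. The cause of the difference from the paper was not tested. Cry2 changed by 0.11, 0.07 and 0.10 (SE 0.35).

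Of 8 clock-controlled output genes, 7 were on the array and 6 tested. Limma called 0 of 6 in any comparison, beside 0% or 0.0049% of all genes in each. Wee1, a cell cycle kinase with E-boxes in its promoter, was the only gene of the list at an unadjusted limma p under 0.05 in any comparison. Its HFS effect over 6 against 6 rats was -0.24 (SE 0.09, limma adjusted p 0.911, exact permutation p 0.01). For that effect 4.36% of all genes were at that level. The 6 genes had median changes of -0.09, 0.04 and -0.06 in HFS, DOPA and DOPA/HFS. Per1 also answers to glucocorticoids, and 5 of 7 glucocorticoid-responsive genes were tested, with 0 called beside the same shares of all genes. Sgk1, a kinase induced by corticosteroids, had an L-DOPA effect of -0.48 (SE 0.15, limma adjusted p 0.9998, exact permutation p 0.015) and an HFS effect of 0.33 (SE 0.15, limma adjusted p 0.911). Cdkn1a, a cell cycle inhibitor, had an interaction of -1.04 (SE 0.40, limma adjusted p 0.99996). For the L-DOPA effect, the HFS effect and the interaction, 1 of 5 genes each was at an unadjusted limma p under 0.05. The shares of all genes at that level were 2.74%, 4.36% and 1.98%. Median changes of these 5 genes were -0.05, -0.17 and -0.23 in the 3 treated groups.

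**Figure D5:**
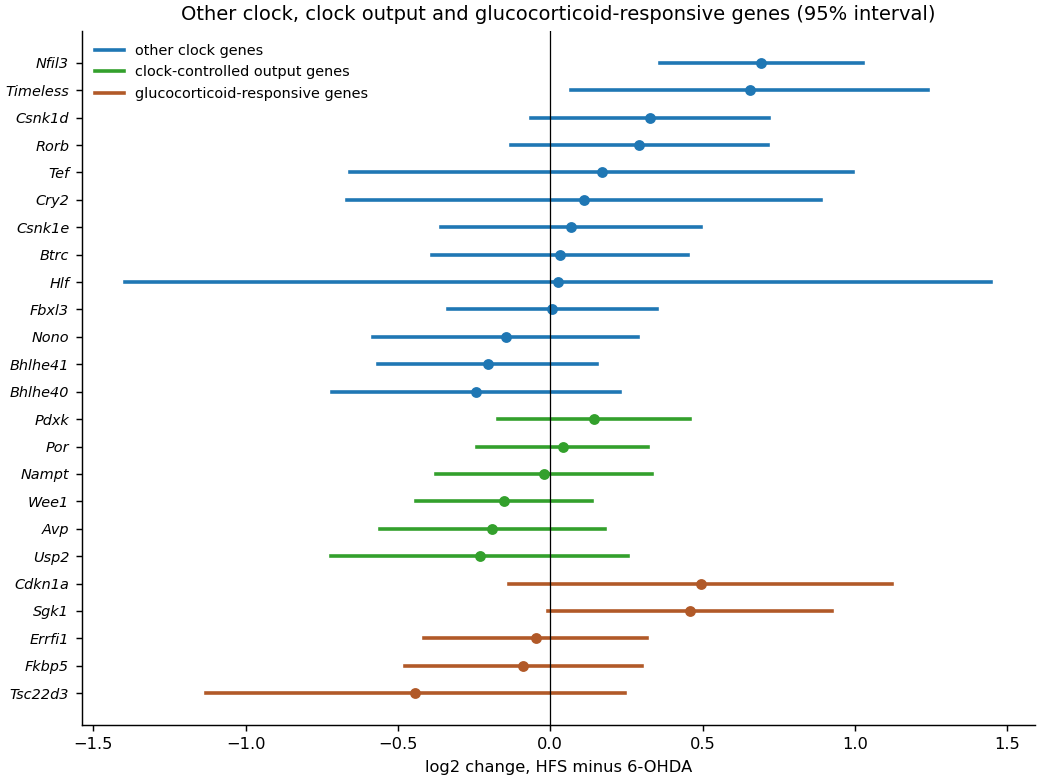
Log2 change in HFS against 6-OHDA of the tested genes of 3 lists, with the point as the limma estimate and the bar as its 95% interval. The bars of Nfil3 (0.36 to 1.02) and Timeless (0.07 to 1.24) lie above 0 and all others cross it.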

How the data were processed

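The deposited scanner files hold intensity values on a linear scale, for which Agilent Feature Extraction (version 9.1 in the submitters' processing notes) had quantified each spot and subtracted its background, with no scaling between arrays. The deposited series table holds log2 values that the authors had quantile normalized, and served as an alternative. Of 45018 spots, 1639 controls and the spots flagged as outliers were left out. The log2 intensities were quantile normalized between arrays and spots of a probe averaged. Probes marked as well above background on under a share of 0.4 of the arrays were dropped, and the brightest probe stood for a gene. This can hide a change seen by a dimmer probe, and forces the same distribution on every array.

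limma 3.58.1 in R 4.3.3 fitted all 12 arrays in 4 groups, with Benjamini-Hochberg adjustment over 20398 genes, and was tested on simulated data. Slide, scaling, background, filter, probe, threshold, SAM and left-out arrays were varied. The number of arrays limits the precision. Replicates are separate rats. The named genes are the 10 members, the genes of 3 lists and the 5 genes of highest and of lowest r with Arntl. Members and lists were chosen with earlier results of these data known. The GRCr8 gene table named 10735 probes by accession, and the names in the files were kept otherwise.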

Additional observations from a re-analysis of the deposited data

How the results depend on the processing

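The count of clock genes called was 0 in each of the 6 comparisons and in the F test under every alternative that was run, leave-one-out included. In the main setting each of these called 0% or 0.0049% of all genes. In HFS against 6-OHDA, dropping the filter on dim probes called 3 genes in all. With so few calls on the whole array, a count of 0 does not set the clock genes apart. Of the 54 log2 changes of the 9 genes, the alternatives other than leave-one-out gave 585 values, of which 28 changed sign, 2 moved by more than an SE and 0 became a call, with a lowest adjusted p of 0.716. Those 2 were Per2 in DOPA/HFS, at -0.09 in the deposited table and -0.09 with outlier spots kept. Many of the 585 values could not move, as the filters, thresholds, slide block and SAM leave the log2 change as it was. All 28 sign changes came from 3 settings. They were 14 of 54 in the deposited table, 11 of 54 with outlier spots kept and 3 of 54 with the other background correction. Leaving out each array in turn gave 648 values, of which 54 changed sign, 4 moved by more than an SE and 0 became a call, with a lowest limma adjusted p of 0.519. Of those 4, 3 were Per1 without 6-OHDA replicate 2 and 1 was Nr1d2 in DOPA, at -0.43 without DOPA replicate 2. The Per1 change in HFS ran from -0.0044 without 6-OHDA replicate 2 to 0.52 without 6-OHDA replicate 3, and the cause was not tested. The Nfil3 change in HFS lay between 0.55 and 0.78 under all alternatives, with limma adjusted p from 0.500 up and an unadjusted limma p of at most 0.00986.

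The replicate block (slide) changed no call, and its lowest adjusted p for a clock gene was 0.716, for Per1 in the HFS effect. Arrays of the same number had deviations that correlated between -0.29 and 0.48, over 0.1 in 10 of 18 pairs (median 0.11), and those of different number exceeded 0.1 in 7 of 36 pairs (median -0.07). With group and slide means removed (replicate block), the r of Arntl with Nr1d2 was 0.012, against -0.52 over the 12 arrays, and that with Per2 was -0.75, against -0.26. In the deposited table the r of Arntl with Npas2 was 0.78. The r of Nr1d1 with Dbp ran from 0.69 without 6-OHDA replicate 3 to 0.90 with group and slide means removed, and that of Npas2 with Per3 from 0.51 with the first principal component removed to 0.93 without HFS replicate 3. The settings for these 2 pairs, for Nfil3 and with the component removed were chosen after seeing the data. With 3 rats a group, the values inside each gene's own 95% interval cannot be told apart.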
